A study of Mus musculus with 19 samples.

Results

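Hippocampal RNA of APP-PS1 mice was compared with that of wild-type littermates, both fed chow without an additive. The comparison takes in 9 of the 19 arrays of the series, chosen by genotype and diet in their titles: 5 from APP-PS1 mice and 4 from wild-type mice, all on the C57BL/6J background and 6 months old. The transgenic mice carried APPSwe-PS1deltaE9, which includes a mutant amyloid precursor protein. The plain chow was eaten from month 3 to month 6. The other 10 arrays, 5 of each genotype, came from mice given the same chow with 375 ppm ibuprofen over those months. They serve to set a difference beside its counterpart, and they also enter the estimate of spread behind every SE and p-value. The probe set of each gene was likewise chosen over all 19 arrays. Each array carried whole-transcript target made from total RNA of hippocampus, and the analysis covered 19938 genes with 1 probe set each. The labels do not say whether an array holds 1 animal or a pool, so p-values measure the spread between these arrays. Sex and litter are not in the labels either. In this transgenic line the mouse prion protein promoter drives both transgenes, and it is active in neurons and in glia, so transgene expression is not limited to neurons.

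Amyloid-beta is cut from the amyloid precursor protein by beta-secretase and then by gamma-secretase. The Swedish mutation favours the first cut, and plaques form in cortex and hippocampus of these mice during adult life. Microglia gather around plaques and change their gene expression, with more lysosomal, lipid-handling and chemokine transcripts. Nearby astrocytes build up intermediate filament proteins.

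The promoters of 4 genes that the results turn on are printed here, as the 250 bases before the start of transcription in the RefSeq annotation of GRCm38.p6. Prnp is shown because its promoter drives the transgenes. Hmgcs1, Hsd17b7 and Nsdhl are shown because they belong to cholesterol synthesis, whose members lay together above wild-type. Capitals mark CCAAT, the box bound by NF-Y, on either strand (ATTGG when it lies on the other strand), and TCACNCCAC, a sterol response element in which N is any base. The positions are chr2:131909678-131909927 on the plus strand for Prnp, chr13:119690101-119690350 on the plus strand for Hmgcs1, chr1:169969206-169969455 on the minus strand for Hsd17b7 and chrX:72918271-72918520 on the plus strand for Nsdhl.
Prnp: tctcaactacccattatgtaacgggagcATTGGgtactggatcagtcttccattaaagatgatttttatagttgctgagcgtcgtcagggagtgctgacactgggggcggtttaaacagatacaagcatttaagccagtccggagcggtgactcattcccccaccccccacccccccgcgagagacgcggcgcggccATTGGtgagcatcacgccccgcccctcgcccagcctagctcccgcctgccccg
Hmgcs1: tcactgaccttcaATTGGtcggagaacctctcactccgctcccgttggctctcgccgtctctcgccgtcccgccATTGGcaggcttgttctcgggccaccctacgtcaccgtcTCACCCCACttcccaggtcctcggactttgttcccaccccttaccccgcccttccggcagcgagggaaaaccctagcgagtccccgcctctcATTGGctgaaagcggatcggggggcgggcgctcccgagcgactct
Hsd17b7: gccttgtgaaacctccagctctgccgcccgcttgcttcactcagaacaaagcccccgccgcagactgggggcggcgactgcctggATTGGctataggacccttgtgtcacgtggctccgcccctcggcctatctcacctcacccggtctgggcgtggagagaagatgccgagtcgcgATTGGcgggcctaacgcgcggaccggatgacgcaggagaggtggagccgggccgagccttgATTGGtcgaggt
Nsdhl: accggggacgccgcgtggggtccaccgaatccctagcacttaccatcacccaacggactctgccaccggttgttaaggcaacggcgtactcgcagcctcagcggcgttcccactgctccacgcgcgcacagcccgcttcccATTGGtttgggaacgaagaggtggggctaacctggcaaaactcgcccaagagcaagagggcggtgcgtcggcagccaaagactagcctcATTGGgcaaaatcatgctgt

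Over all probe sets signal was close between arrays. The median log2 signal there ran from 8.06 to 8.14 across the 19 arrays, and any pair had a correlation of 0.970 to 0.997. Over the 19938 genes the medians were less even. APP-PS1 replicate 1 had 8.747, against 8.629 to 8.676 in the other control chow arrays, and wild-type ibuprofen replicates 1 and 5 had 8.753 and 8.908. APP-PS1 replicate 1 stood somewhat apart, with a median correlation to the other arrays of 0.9895, and so did wild-type ibuprofen replicates 1 and 5 at 0.9873 and 0.9739. APP-PS1 replicate 1 was also the highest array of its group in 53.4% of all genes, against 9.0% to 18.5% for the other 4, and results that rest on it are given with and without it. Markers of the hippocampus were high: Prox1 of dentate granule cells lay between 10.43 and 10.65, Fibcd1 of CA1 pyramidal cells between 10.25 and 10.73, and Pcp4 of CA2 cells between 12.59 and 12.90. Choroid plexus was carried into some samples, as Ttr, the transthyretin gene, ranged from 10.61 to 14.13. Transcripts of the Y chromosome were well above Xist in all 9 arrays.

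Prnp and App separated the genotypes in every array. Prnp encodes the prion protein, and its log2 signal (probe set 10476314) was 13.31, 13.39, 13.37, 13.37 and 13.44 in the 5 APP-PS1 arrays, against 12.75, 12.69, 12.71 and 12.68 in the 4 wild-type arrays. The groups did not overlap, and their means were 13.38 ± 0.05 (SD, n = 5) and 12.71 ± 0.03 (SD, n = 4). The difference of 0.67 ± 0.03 (SE), a 1.59-fold higher signal, had an adjusted p of 8.19e-11 in a limma fit across all genes. App encodes the amyloid precursor protein (probe set 10440491), and its signal was 13.57, 13.61, 13.60, 13.60 and 13.62 in APP-PS1 arrays against 13.21, 13.22, 13.22 and 13.16 in wild-type arrays. Here too no array of either genotype lay within the range of the other. App was 0.40 ± 0.04 (SE) higher, or 1.32-fold, with a limma adjusted p of 3.3e-06. The spread among the 5 transgenic arrays was small beside both differences, with an SD of 0.02 for App.

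The other genes of this list did not pass the test. Aplp2, an App homologue, was 12.55 to 12.60 in APP-PS1 arrays and 12.39 to 12.55 in wild-type arrays, a difference of 0.09 ± 0.04 (SE, limma adjusted p = 0.85). Each APP-PS1 array was above every wild-type array for Aplp2, but the nearest arrays of the groups were equal after rounding. Aplp1, the neuronal homologue, differed by 0.07 ± 0.05 (SE) with overlapping groups. Psen2, the gene of presenilin 2, differed by 0.06 ± 0.07 (SE), and its wild-type arrays at 9.20 to 9.29 lay inside the APP-PS1 range of 9.19 to 9.49.

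**Figure D1:**
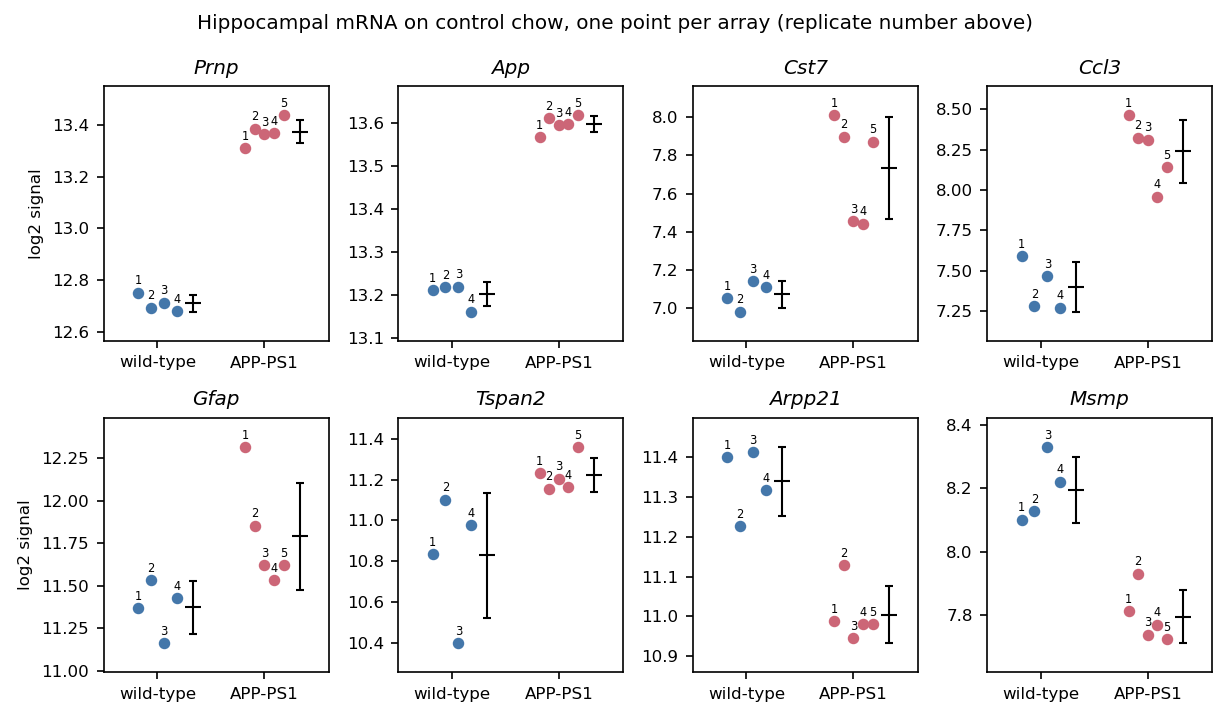
Log2 signal of 8 genes in each control chow array, wild-type on the left (4 points) and APP-PS1 on the right (5 points), with the replicate number above each point and the mean and SD beside each group. Prnp, App, Cst7, Ccl3, Gfap and Tspan2 show every APP-PS1 point above every wild-type point, and Arpp21 and Msmp show the reverse; of the 8, Prnp and App passed the test across all genes.

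Beyond these 2 genes, called higher out of 19938 (0.01%), none passed as higher and none as lower (0%) at a limma adjusted p of 0.05. Without the adjustment 957 genes (4.8%) were higher and 213 (1.07%) lower at p under 0.05. All 5 APP-PS1 arrays exceeded all 4 wild-type arrays for 586 genes (2.94%) and lay beneath them for 180 (0.903%). A small displacement of many genes went with the excess on the higher side: 57.9% of all genes lay above 0, the median difference was 0.02, and the middle range from the lower to the upper quartile ran from -0.04 to 0.08. When each array was centred on its own gene median, 42.1% lay above 0 and the non-overlapping genes split into 325 above and 346 below. Without APP-PS1 replicate 1 the share above 0 was 49.6%.

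The displacement lay in the brighter genes. With the genes split by mean signal into 4 equal classes, in the brightest class 73.6% lay above 0, with a median difference of 0.05, and 356 genes were above without overlap against 42 below. In the dimmest class 39.1% lay above 0, with a median of -0.02, and the counts were 20 above against 62 below. Single arrays weighed on these counts. Among the 586 genes above without overlap, APP-PS1 replicate 1 was the highest of its group in 426 (72.7%) and wild-type replicate 3 the lowest of its group in 406 (69.3%, against 28.9% of all genes). Genes at unadjusted p under 0.05 in either direction numbered 1170 (5.87%) with all arrays, 729 without APP-PS1 replicate 1, 400 without wild-type replicate 3 and 1594 without wild-type replicate 2. Differences were small in size throughout: 331 genes differed by more than 0.25 in either direction, 31 by more than 0.5, and 9 of those 31 without overlap of the groups. For a typical gene the SE was 0.0825, so a 95% interval reached 0.171 to either side.

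Cst7 and Ccl3, microglial genes, came next among the higher genes, though neither passed the test. Cst7 encodes cystatin F, an inhibitor of lysosomal cathepsins that microglia make near plaques (probe set 10476945). Its signal was 8.01, 7.90, 7.46, 7.44 and 7.87 in APP-PS1 arrays against 7.05, 6.98, 7.14 and 7.11 in wild-type arrays. The difference was 0.66 ± 0.12 (SE), a 1.58-fold higher signal, with a limma adjusted p of 0.0722. Over 23 other settings that p ran from 0.021 to 0.981 and was under 0.05 in 3 of them: with array weights, without APP-PS1 replicate 3 and without APP-PS1 replicate 4. Replicates 3 and 4 were the lowest APP-PS1 arrays for this gene. Ccl3 encodes the chemokine MIP-1 alpha (probe set 10389231), with 8.46, 8.32, 8.31, 7.96 and 8.14 in APP-PS1 arrays against 7.59, 7.28, 7.47 and 7.27 in wild-type arrays. The groups were again apart, by 0.84 ± 0.16 (SE) or 1.78-fold, and the limma adjusted p was 0.151, with 4 of 23 other settings under 0.05.

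The remaining genes ranked high by p were of mixed function, and their limma adjusted p was 0.699 or more. Acsl4, which loads arachidonic acid onto coenzyme A, differed by 0.23 ± 0.06 (SE), with 11.22 to 11.38 in APP-PS1 arrays and 10.88 to 11.13 in wild-type arrays. Tspan2 and Mal, which encode membrane proteins of myelin, differed by 0.39 ± 0.10 (SE) and 0.20 ± 0.05 (SE). Wild-type replicate 3 was the lowest of the 9 arrays for each of these 3 genes, at 10.40 for Tspan2. Rassf8 differed by 0.28, Vma21, an assembly factor of the lysosomal proton pump, by 0.34, the RNA helicase gene Dhx36 by 0.22, the mitochondrial transcription factor gene Tfb2m by 0.30, the acetyltransferase gene Naa50 by 0.21, the mitochondrial import gene Mtx2 by 0.26, the proteasome subunit gene Psmc6 by 0.20 and the phosphatase gene Bpnt2 by 0.22. Bpnt2 and Tfb2m had groups that overlapped narrowly, and the groups of the others did not overlap. These genes were chosen for a small p, so the lack of overlap is no further result. Chosen by size among non-overlapping genes, Mob3b differed by 0.41 and Spink10 by 0.45. Cyp2g1, a cytochrome P450 gene, had the largest difference of all without overlap, 0.96 ± 0.53 (SE). Its APP-PS1 arrays scattered from 6.61 to 8.69 while the wild-type arrays were close together, with an SD of 0.04.

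Arpp21 was the lower gene with the smallest p, and it missed the threshold narrowly. It encodes a phosphoprotein regulated by cyclic AMP in forebrain neurons (probe set 10597323). The signal was 10.99, 11.13, 10.95, 10.98 and 10.98 in APP-PS1 arrays against 11.40, 11.23, 11.41 and 11.32 in wild-type arrays, so the groups did not overlap. Its difference was -0.34 ± 0.06 (SE) and its limma adjusted p 0.0533, with a range of 0.00245 to 0.262 over 23 other settings and a call in 6 of them. Those 6 were a second quantile normalization, leaving out the dimmest 25% of genes, robust empirical Bayes, array weights, and leaving out APP-PS1 replicate 2 or wild-type replicate 2, which were the arrays nearest the other group. Msmp, a secreted microseminoprotein gene, was 7.72 to 7.93 in APP-PS1 arrays and 8.10 to 8.33 in wild-type arrays, a difference of -0.40 ± 0.08 (SE, limma adjusted p = 0.162).

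The vomeronasal receptor gene Vmn1r48, outside the rule for standard names and named after its values were seen, gave -0.39 with no overlap and a limma adjusted p of 0.0716. The other lower genes with a standard name had limma adjusted p-values of 0.699 or more. Klhl34 gave -0.51 ± 0.12 (SE), with 8.24 to 8.46 against 8.58 to 9.21, and Gpr39, a zinc-sensing receptor gene, -0.44 ± 0.10 (SE), with 6.37 to 6.79 against 7.01 to 7.21. Neuronal signalling genes among them included Shc3, a neuronal adaptor of growth factor receptors, at -0.16, Tanc2, a postsynaptic scaffold gene, at -0.15, Efna5, an axon guidance ligand gene, at -0.31, Resp18, a neuroendocrine secretory protein gene, at -0.30, and Fxyd7, a regulator of the brain sodium pump, at -0.24. Cox6a2 of the respiratory chain gave -0.24, the hedgehog ligand gene Dhh -0.22, the keratin gene Krt12 -0.28, Mei1 -0.22 and Dppa3 -0.30. Each of these 12 had no overlap between the groups, as had 0.903% of all genes in this direction. Efna5, Fxyd7 and Dppa3 were chosen for that lack of overlap and the others for a small p, so the count is no further result. Bricd5 at -0.25, Mgat4f at -0.23, Krtap21-1 at -0.31 and Ifna2 at -0.35 overlapped. Rny1, a small non-coding Y RNA, gave the largest lower difference without overlap among genes with a standard name, -0.63 ± 0.26 (SE), with 9.47 to 9.91 against 10.09 to 10.87.

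Gene lists were then read by the number of members above 0, the number whose groups did not overlap and the median difference, beside 57.9%, 2.94% and 0.02 for all genes. Many lists hold mainly bright genes, and among the 9969 genes of the brighter 2 of 4 classes the same values were 73.3%, 5.29% and 0.05. All 17 cholesterol synthesis genes fell in those classes, as did 16 of 17 oligodendrocyte genes, with 14 above 0, and 23 of 34 plaque-associated microglial genes, with 19 above 0. In bulk tissue, more cells of a type and more RNA per cell cannot be told apart. Leaving out an array cannot lower a count without overlap. Over all genes the 586 above became 1561 without wild-type replicate 2 and 1181 without APP-PS1 replicate 4. Of 41 lists, none but the 5 genes around the transgenes had a member that passed the test over all genes. The highest medians were those of choroid plexus, cholesterol synthesis, interferon response, oligodendrocytes and microglia, and the lowest those of neocortex and immediate early genes.

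**Figure D2:**
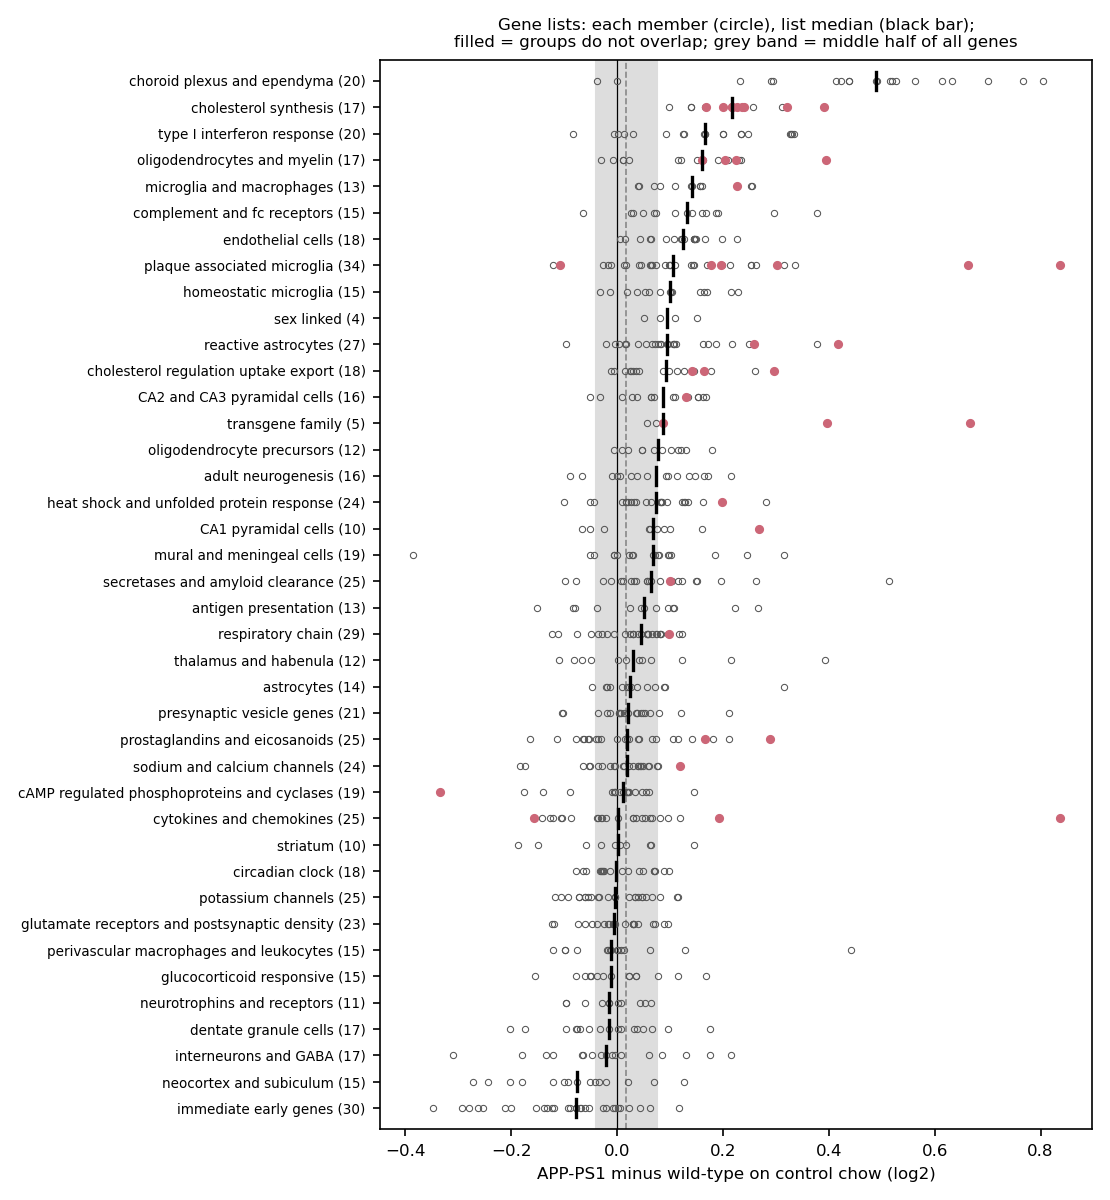
Difference between APP-PS1 and wild-type (log2) for each measured member of the gene lists, ordered by median, with the list size in brackets, the black bar at the median and filled circles for members whose groups do not overlap. The grey band from -0.04 to 0.08 holds the middle of all genes and the dashed line their median of 0.02; cholesterol synthesis lies wholly to the right of 0, while choroid plexus has the highest median, 0.49, and no filled circle.

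Genes of plaque-associated microglia lay mostly above wild-type. Of 34 measured, 29 were above 0, the median difference was 0.10, and 5 (Cst7, Ccl3, Ctsz, Clec7a and Lpl) were above without overlap against 1, the protease inhibitor gene Timp2, below. After Ccl3 and Cst7 the larger differences were Gpnmb at 0.34 ± 0.22 (SE) and Lyz2 at 0.31 ± 0.18 (SE). Ctsd, the gene of cathepsin D, was 12.25 to 12.56 in APP-PS1 arrays and 11.96 to 12.28 in wild-type arrays, a difference of 0.26 ± 0.09 (SE). Ctsz was 10.73 to 10.98 against 10.52 to 10.70, a difference of 0.30 ± 0.12 (SE), and Ctsb and Ctsl differed by 0.10 and 0.21. Clec7a, the dectin-1 receptor gene, was near the bottom of the signal range at 6.58 to 6.72 against 6.44 to 6.54, so its 0.18 ± 0.08 (SE) is on a compressed scale. Cd68, a lysosomal membrane protein gene of phagocytes, differed by 0.25 ± 0.11 (SE). Trem2 and Tyrobp, the receptor and adaptor that license the plaque response, differed by 0.11 ± 0.07 (SE) and 0.14 ± 0.10 (SE) with overlapping groups. Apoe differed by -0.01 ± 0.05 (SE), B2m by 0.05 ± 0.26 (SE), Itgax by 0.06 ± 0.13 (SE) and Igf1 by 0.01 ± 0.09 (SE). The list mean was 9.84 to 9.95 in APP-PS1 arrays and 9.72 to 9.82 in wild-type arrays. Without APP-PS1 replicate 1 the median was 0.12 with 29 above 0. Without wild-type replicate 2, the highest wild-type array for this list, 10 genes were above without overlap, beside 1561 of all 19938 genes.

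Other microglial genes lay on the same side. All 13 genes of microglia and macrophages were above 0, with a median of 0.14, and 1 of them, Laptm5, was above without overlap, by 0.23 ± 0.08 (SE). Ly86, a partner of a Toll-like receptor homologue, differed by 0.26 ± 0.10 (SE), and Csf1r, the receptor that microglia need to survive, by 0.16 ± 0.06 (SE). Of 15 homeostatic microglial genes 13 were above 0, with a median of 0.10 and none without overlap. Olfml3 differed by 0.22, Fcrls by 0.23 and P2ry13 by 0.17. P2ry12 lay at 9.36 to 9.59 in APP-PS1 arrays and 9.46 to 9.57 in wild-type arrays, and Tmem119 at 9.81 to 9.95 and 9.68 to 9.89. Without APP-PS1 replicate 1 the medians were 0.10 for microglia and macrophages and 0.08 for the homeostatic genes. Without APP-PS1 replicate 4, 6 of the 13 genes were above without overlap, and without wild-type replicate 2, 6 of the 15 were. Over all 19938 genes the counts were 1181 and 1561 under these settings.

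Complement and cytokine genes divided. Of 15 complement and Fc receptor genes 14 were above 0, with a median of 0.13 and none without overlap. C4b differed by 0.38 ± 0.17 (SE), C3ar1, the C3a receptor gene, by 0.30 ± 0.12 (SE) and C1qa by 0.14 ± 0.09 (SE). The median was 0.07 without APP-PS1 replicate 1. Once wild-type replicate 2 was left out, 4 genes were above without overlap, beside 1561 of all 19938 genes. Of 25 cytokine and chemokine genes 13 were above 0 and the median was 0.00. Ccl3 and Il33, an alarmin of oligodendrocytes and astrocytes at 10.88 to 11.00 against 10.63 to 10.84, were above without overlap, and Ccl7 at 7.44 to 7.66 against 7.70 to 7.79 was below. Il1b gave -0.13 ± 0.09 (SE), Il6 0.10 ± 0.06 (SE) at the dim end of the scale, and Ccl4, a chemokine related to Ccl3, -0.12 ± 0.11 (SE). Among 25 genes of prostaglandin and eicosanoid metabolism 14 were above 0 with a median of 0.02. Hpgd, which inactivates prostaglandins, was 9.05 to 9.35 against 8.82 to 8.98, a difference of 0.29 ± 0.09 (SE). Tbxas1, thromboxane synthase, was also above without overlap, by 0.17 ± 0.09 (SE), while Ptgs2, the inducible cyclooxygenase gene, differed by 0.21 ± 0.11 (SE) and Ptger2, a prostaglandin E2 receptor gene, by -0.16 ± 0.08 (SE), both with overlap.

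Gfap led the genes of reactive astrocytes. It encodes the intermediate filament of astrocytes (probe set 10391798), and its signal was 12.32, 11.85, 11.62, 11.53 and 11.62 in APP-PS1 arrays against 11.37, 11.53, 11.16 and 11.43 in wild-type arrays. The lowest APP-PS1 array and the highest wild-type array both rounded to 11.53, and the groups did not overlap before rounding. The difference was 0.42 ± 0.17 (SE, limma adjusted p = 0.806), and it was 0.29 without APP-PS1 replicate 1, the lowest value over the settings tried. Of 27 genes 24 were above 0, with a median of 0.09 that was 0.04 without that array. Serpina3n, a protease inhibitor of reactive astrocytes, was also above without overlap, at 12.07 to 12.48 against 11.79 to 12.03. Vim differed by 0.22 ± 0.14 (SE) and Osmr, the oncostatin M receptor gene, by 0.25 ± 0.14 (SE). Wild-type replicate 2 was the highest wild-type array for this list, with a mean of 8.82 against 8.51 to 8.55 in the other 3. Without it, 7 genes were above without overlap, beside 1561 of all 19938 genes, and the median was 0.15. Genes of all astrocytes were close to wild-type, with 10 of 14 above 0 and a median of 0.02, although Aqp4, the water channel of their end feet, differed by 0.32 ± 0.10 (SE).

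Interferon-response genes were high in single arrays of both genotypes. Of 20 genes 18 were above 0 with a median of 0.17, and none was free of overlap. The list mean was 9.07 in APP-PS1 replicate 5 and 8.53 in wild-type replicate 2, against 7.95 to 8.18 in the other 7 arrays. Oasl2, an antiviral gene, was 10.59 in the first of these and 9.61 in the second, against 8.10 to 8.61 elsewhere. Ifit1 was 10.11 and 9.20 against 7.39 to 8.07, and Usp18 9.62 and 8.76 against 7.49 to 7.78. Without APP-PS1 replicate 5 the list median was -0.04. Antigen presentation genes had 9 of 13 above 0 and a median of 0.05, or 0.00 without that array.

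Vascular and choroid plexus genes also varied by sample. All 18 endothelial genes were above 0, with a median of 0.12 and none without overlap. Cldn5, a tight junction gene, differed by 0.20 ± 0.10 (SE) and Slco1a4, a transporter gene, by 0.23 ± 0.10 (SE). Wild-type replicate 2 had a list mean of 9.68 against 9.37 to 9.40 in the other wild-type arrays, and without it the median was 0.20. Without wild-type replicate 1 the median was 0.08, with 14 of 18 above 0. Choroid plexus genes had the highest median of all lists, 0.49, with 19 of 20 above 0. Their list mean was 10.11 and 9.74 in APP-PS1 replicates 4 and 5 and 9.21 in wild-type replicate 1, against 7.84 to 8.28 in the other 6 arrays. Otx2, a transcription factor gene of that epithelium, was 10.20 and 9.91 in the first 2 and 9.11 in the third. Without APP-PS1 replicate 4 the median was 0.13. With a choroid plexus covariate it was -0.03, which is no test, as the covariate stands for the same transcripts. With that covariate the medians were 0.20 for cholesterol synthesis, 0.14 for oligodendrocytes and 0.10 for plaque-associated microglia. The part of choroid plexus content in other lists was not tested.

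Genes that make and clear amyloid-beta lay mostly above 0 by small amounts. Of 25 genes of secretases and clearance 21 were above 0, with a median of 0.06, and 19 of the 21 bright members were above 0. Bace1, the beta-secretase gene, differed by -0.03 ± 0.07 (SE). Among gamma-secretase subunits, Psenen differed by 0.10 ± 0.04 (SE), Ncstn by 0.15 ± 0.07 (SE), Aph1a by 0.06 ± 0.07 (SE) and Aph1b by 0.12 ± 0.07 (SE). Of the alpha-secretases, Adam10 was above without overlap, at 10.60 to 10.78 against 10.58 to 10.59, a difference of 0.10 ± 0.06 (SE), and Adam17 differed by 0.20 ± 0.09 (SE). The amyloid-degrading enzyme genes Ide and Mme differed by 0.10 ± 0.06 (SE) and 0.03 ± 0.10 (SE). Clu gave 0.01 ± 0.04 (SE) and Lrp1 0.04 ± 0.06 (SE). A2m, a protease trap, gave 0.51 ± 0.28 (SE), with 9.40 and 9.36 in the same APP-PS1 replicates 4 and 5 that held choroid plexus transcripts.

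Oligodendrocyte genes formed a second group above wild-type. Of 17 measured, 15 were above 0, the median was 0.16, and 4 (Tspan2, Mal, Cnp and Mag) were above without overlap. Tspan2 was 11.23, 11.16, 11.20, 11.16 and 11.36 in APP-PS1 arrays against 10.84, 11.10, 10.40 and 10.98 in wild-type arrays. Mal was 11.66 to 11.77 against 11.45 to 11.65, and here wild-type replicate 2 stood well above the other wild-type arrays at 11.45 to 11.47. Cnp, the gene of a myelin phosphodiesterase, was 12.30 to 12.39 against 12.13 to 12.28. Mag, an adhesion molecule of the inner myelin membrane, was 11.36 to 11.60 against 11.17 to 11.32. Cldn11, Trf and Mog differed by 0.23 ± 0.08 (SE), 0.21 ± 0.08 (SE) and 0.23 ± 0.09 (SE) with overlap. The abundant myelin genes Mbp and Mobp gave -0.03 ± 0.04 (SE) and -0.01 ± 0.09 (SE), and Myrf, the transcription factor gene of myelination, 0.01 ± 0.09 (SE). The median held at 0.14 without APP-PS1 replicate 1. Leaving out APP-PS1 replicate 4 put 9 genes above without overlap, beside 1181 of all 19938 genes. Precursor genes had 11 of 12 above 0, with a median of 0.08, or 0.05 without APP-PS1 replicate 1. With a covariate for oligodendrocyte transcripts the median of microglia and macrophages was 0.02 and that of homeostatic microglia 0.00. The part of oligodendrocyte content in those lists was not tested.

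All 17 measured genes of cholesterol synthesis lay above 0, against 57.9% of all genes, with a median of 0.22. In 9 of them (Hsd17b7, Nsdhl, Hmgcs1, Sc5d, Ebp, Tm7sf2, Dhcr7, Fdps and Msmo1) the groups did not overlap. The first step measured, Hmgcs1, which makes HMG-CoA, was 12.06, 11.66, 11.66, 11.56 and 11.63 in APP-PS1 arrays against 11.53, 11.53, 11.46 and 11.37 in wild-type arrays, a difference of 0.24 ± 0.10 (SE). Farther along the mevalonate steps, Mvk, Pmvk and Mvd differed by 0.14, 0.10 and 0.14, Idi1 by 0.31 and Fdps by 0.23. The squalene steps gave 0.17 for Fdft1, 0.24 for Sqle and 0.17 for Lss. Of the enzymes that trim lanosterol to cholesterol, Hsd17b7 was 10.84, 10.27, 10.24, 10.15 and 10.19 against 10.01, 10.05, 9.84 and 9.89, a difference of 0.39 ± 0.13 (SE). Nsdhl was 11.28, 10.89, 10.81, 10.78 and 10.87 against 10.74, 10.66, 10.35 and 10.68, a difference of 0.32 ± 0.11 (SE). Cyp51 gave 0.26, Tm7sf2 0.24, Msmo1 0.20, Ebp 0.22, Sc5d 0.17 and Dhcr7 0.22.

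APP-PS1 replicate 1 was the highest of the 9 arrays for every one of these 17 genes. The mean of the list was 10.71 in it, 10.23 to 10.31 in the other 4 APP-PS1 arrays and 10.08 to 10.20 in the 4 wild-type arrays, so the list means of the groups did not overlap. Leaving it out gave a median of 0.12, with 17 of 17 above 0. The count of 9 without overlap could not change, because the array left out was the highest for each gene. The count at unadjusted p under 0.05 was less steady, at 8 of 17 with all arrays, 2 without APP-PS1 replicate 1 and 3 without wild-type replicate 3 or wild-type replicate 4. With each array centred on its gene median 17 of 17 stayed above 0, with a median of 0.18. Regulators and transporters of cholesterol were above 0 in 16 of 18, with a median of 0.09, or 0.06 without APP-PS1 replicate 1. Stard4, a cytosolic sterol carrier gene, was 8.60 to 9.30 against 8.44 to 8.56, a difference of 0.30 ± 0.13 (SE), Insig2 differed by 0.16 and Npc1, the lysosomal cholesterol exporter, by 0.14, each without overlap. Srebf2, the gene of the sterol-sensing transcription factor, differed by 0.13 ± 0.09 (SE), and its target Insig1 by 0.26 ± 0.12 (SE), with overlap.

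**Figure D3:**
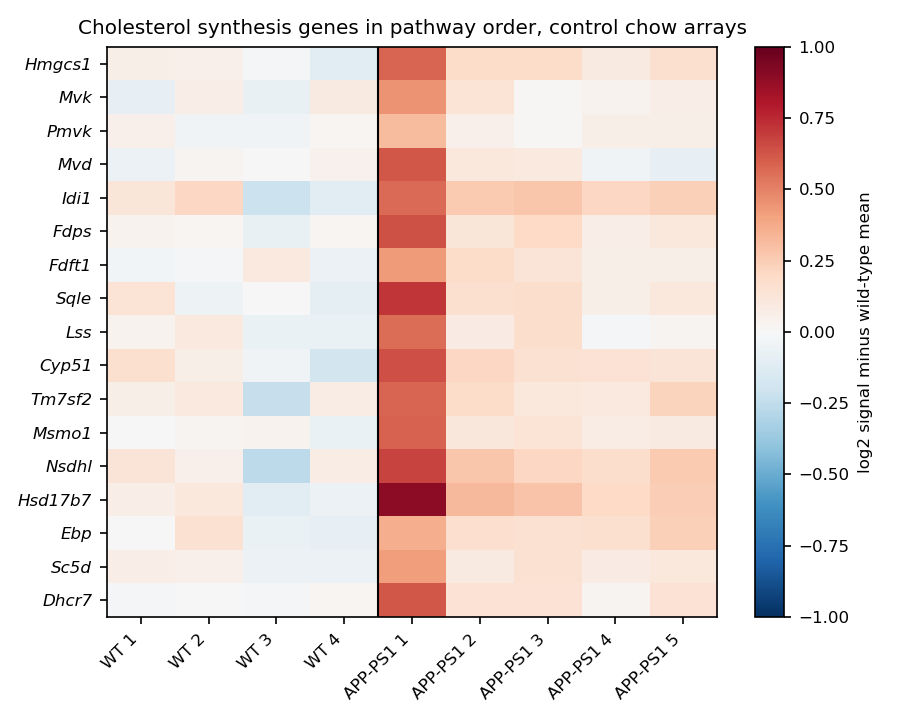
Cholesterol synthesis genes in pathway order (down the picture) in the 9 control chow arrays (across), coloured by log2 signal minus the wild-type mean of the gene, with colour limits at -1 and 1. APP-PS1 replicate 1 has the highest value for all 17 genes, and the other 4 APP-PS1 arrays are paler, with the list mean at 10.23 to 10.31 against 10.08 to 10.20 in wild-type.

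The promoters printed above share CCAAT. It occurred 3 times before the start of Hmgcs1, 3 times before Hsd17b7, 2 times before Nsdhl and 2 times before Prnp, with no overlap between motifs. A promoter was in the table for 14 of the 17 cholesterol synthesis genes, and all 14 held CCAAT on either strand within 250 bases, against 37.5% of 27025 genes and 33.9% of all 32851 promoters of that length. TCACNCCAC was in 1 of the 14, Hmgcs1, 128 bases before the start, against 1.22% of genes. For comparison CCAAT was in 8 of 13 genes of cholesterol regulation, 5 of 13 oligodendrocyte genes, 13 of 27 plaque-associated microglial genes and 9 of 24 immediate early genes. In the immediate early genes, TGACGTCA, the cyclic AMP response element, was in 2 of 24 (Btg2 and Dusp1) against 1.77% of genes. The CArG box bound by serum response factor was in 2 of 24 (Egr2 and Dusp5) against 1.62%. These 4 motifs were all that were searched, and a match of letters is not a measured binding site.

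Immediate early genes, which neurons transcribe on activity, lay below wild-type in most members but with overlap throughout. Of 30 measured, 6 were above 0, against 57.9% of all genes, with a median of -0.08, and none was free of overlap in either direction. Nr4a1 was 10.47, 10.53, 10.29, 10.56 and 10.55 in APP-PS1 arrays against 10.54, 10.99, 11.05 and 10.52 in wild-type arrays, a difference of -0.29 ± 0.10 (SE). Arc, whose product acts at synapses, was 10.27 to 10.56 against 10.45, 10.88, 11.08 and 10.41, a difference of -0.28 ± 0.13 (SE). Fos gave -0.26 ± 0.13 (SE), Npas4 -0.35 ± 0.18 (SE), Egr1 -0.21 ± 0.12 (SE) and Egr2 -0.25 ± 0.13 (SE). In each of these 6 genes wild-type replicates 2 and 3 were the highest of the 9 arrays, and wild-type replicates 1 and 4 lay within or below the APP-PS1 range. The list mean was 9.62 and 9.72 in wild-type replicates 2 and 3, 9.44 and 9.43 in the other 2, and 9.39 to 9.52 in the APP-PS1 arrays. Without wild-type replicate 3 the median was -0.04, and without wild-type replicate 2 it was -0.05. At unadjusted p under 0.05, 2 members were lower with all arrays, 0 without wild-type replicate 2 or wild-type replicate 3, and 7 without wild-type replicate 1. Bdnf gave 0.04 ± 0.12 (SE) and Homer1 -0.01 ± 0.07 (SE).

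Wild-type replicate 3 was also high in genes of neocortex and subiculum, the tissue that borders the hippocampus. Its list mean was 9.86, against 9.46 to 9.70 in the other wild-type arrays and 9.53 to 9.64 in the APP-PS1 arrays. Of those 15 genes 3 were above 0, with a median of -0.08. Without it 6 were above 0 and the median was -0.01, and without wild-type replicate 4, 1 was above 0 and the median was -0.15. Tshz2 was 10.76 in this array and 9.54 to 10.06 in the other 8. Genes of the striatum had 5 of 10 above 0 and a median of 0.00.

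**Figure D4:**
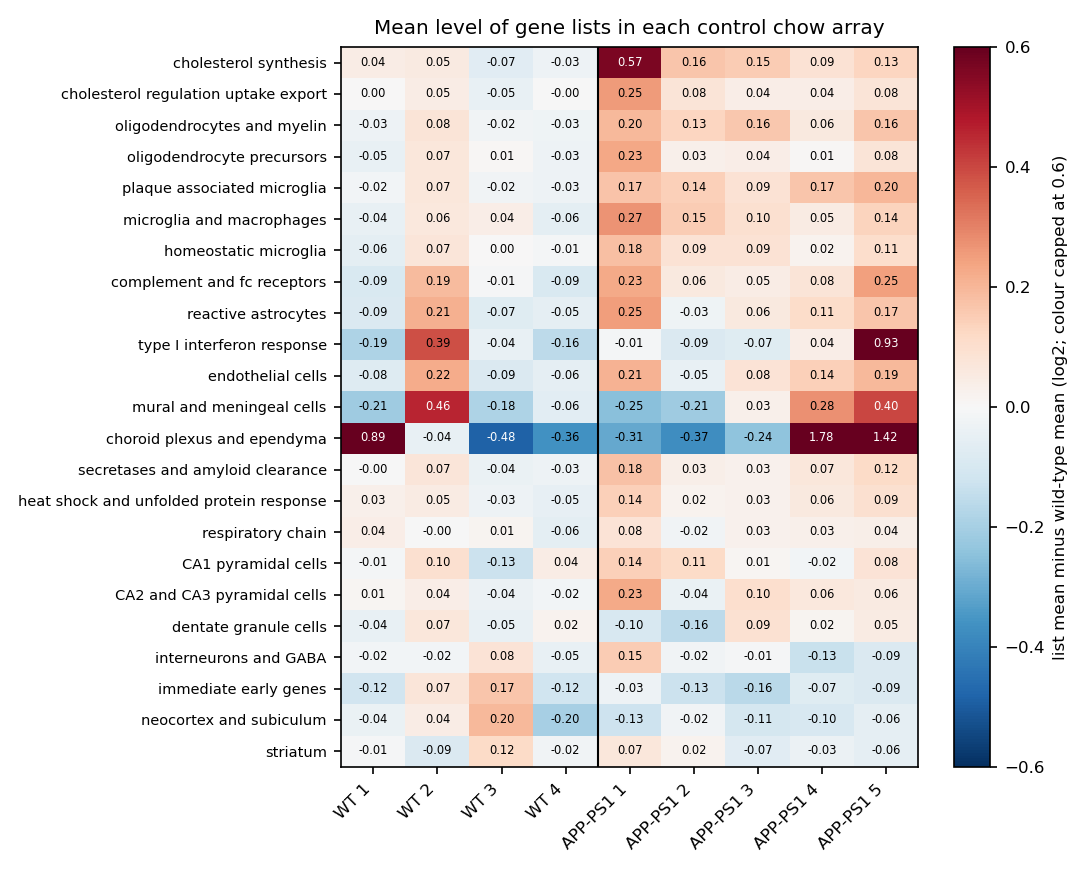
Mean log2 level of 23 gene lists (down the picture) in each of the 9 control chow arrays (across), minus the wild-type mean of the list, with colour limits at -0.6 and 0.6 and the value printed in each cell. Cholesterol synthesis and oligodendrocyte lists are higher in all 5 APP-PS1 columns than the wild-type mean. APP-PS1 replicate 1 is the highest for cholesterol synthesis, and wild-type replicate 2 stands above the other wild-type arrays for oligodendrocytes. Interferon response is highest in APP-PS1 replicate 5, choroid plexus in APP-PS1 replicates 4 and 5, and immediate early genes in wild-type replicates 2 and 3.

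Markers of the principal neurons varied by region. CA1 genes had 7 of 10 above 0 and a median of 0.07, or 0.03 without wild-type replicate 3. Man1a, a mannosidase gene, was above without overlap, at 10.86 to 11.07 against 10.33 to 10.81. CA2 and CA3 genes had 14 of 16 above 0 and a median of 0.09, and 11 of their 13 bright members were above 0. That median was close to the 0.10 of plaque-associated and of homeostatic microglia. Ociad2 was 11.94 to 12.10 against 11.75 to 11.92, a difference of 0.13 ± 0.06 (SE). Dentate granule cell genes were split, with 8 of 17 above 0 and a median of -0.01. Calb1, the calbindin gene of granule cells, gave -0.10 ± 0.10 (SE), with 11.46 to 11.89 against 11.64 to 11.90. Interneuron and GABA genes had 6 of 17 above 0 and a median of -0.02, or 10 of 17 and 0.01 without wild-type replicate 3. Vip gave -0.31 ± 0.13 (SE) and Sst -0.13 ± 0.06 (SE), and Gad2 0.18 ± 0.08 (SE), all with overlap. Wild-type replicate 3 was the highest of the 9 arrays for Vip, at 9.44, and for Sst, at 13.24, and the lowest for Gad2, at 10.94.

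Synaptic and signalling lists had medians near the 0.02 of all genes and below the 0.05 of the brighter genes, where nearly all their members fell. Glutamate receptor and postsynaptic genes had a median of -0.01, potassium channels 0.00, sodium and calcium channels 0.02 and presynaptic vesicle genes 0.02. Of their bright members 10 of 22, 11 of 25, 14 of 22 and 16 of 21, in that order, were above 0, against 73.3% of the brighter genes. Gria1, an AMPA receptor subunit gene, gave 0.10 ± 0.04 (SE) and Camk2n1, an inhibitor of CaM kinase II, -0.12 ± 0.05 (SE). Cyclic AMP signalling genes had 11 of 19 above 0 and a median of 0.01, but 6 of 19 and -0.03 without APP-PS1 replicate 1. Adcy1, an adenylyl cyclase gene, gave -0.18 ± 0.08 (SE). Respiratory chain genes had 21 of 29 above 0 and a median of 0.04, and centring each array left 16 above 0 and a median of 0.01. Chaperone genes had 21 of 24 above 0 and a median of 0.07, or 0.04 without APP-PS1 replicate 1. Hspd1, the mitochondrial chaperonin gene, was above without overlap, at 11.33 to 11.46 against 11.01 to 11.27, and Pdia4 of the endoplasmic reticulum differed by 0.28 ± 0.10 (SE) with overlap.

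The arrays from ibuprofen chow, which share none with the control chow comparison, separated the genotypes for Prnp and App in the same way. Both comparisons used the same estimate of spread. Prnp differed there by 0.67 ± 0.03 (SE) and App by 0.34 ± 0.03 (SE), and the difference between diets was 0.00 ± 0.05 (SE) and 0.06 ± 0.05 (SE). All APP-PS1 arrays lay above all wild-type arrays for 46 genes on ibuprofen chow (0.231%) and below for 411 (2.06%). The genes above on both diets were 4, namely App, Prnp, Cst7 and Gal, which are 0.68% of the 586 and 8.7% of the 46. Of the 586, 142 (24.2%) lay above 0 on ibuprofen chow, against 37.8% of all genes, and 16 were below without overlap there. Of the 180 below on control chow, 94 (52.2%) lay below 0 on ibuprofen chow, against 62.2% of all genes, and 1 was above without overlap. No gene was below on both diets with the values as deposited. Without the 3 arrays that stand apart 13 were, out of 390 on control chow and 635 on ibuprofen chow. Those 13 were 2.05% of the 635, near the 1.956% of all genes below on control chow in that setting. After centring 4 were below on both diets, 1.49% of 269, beside 1.735% of all genes. In that setting 8 were above on both diets, 8.99% of 89, beside 1.63% of all genes. Those 8 were App, Cst7, Gal, Gfap, Grn, Idh1, Prnp and Rassf8. Cst7 differed by 0.87 ± 0.11 (SE) on ibuprofen chow, Ccl3 by 0.58 ± 0.16 (SE) and Gfap by 0.56 ± 0.16 (SE). Gal, the gene of the neuropeptide galanin (probe set 10464471), was 7.72 ± 0.27 (SD, n = 5) against 7.35 ± 0.06 (SD, n = 4) on control chow, a difference of 0.37 ± 0.12 (SE), and differed by 0.43 ± 0.11 (SE) on ibuprofen chow. It was chosen after its values were seen.

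Lists did not all keep their place on ibuprofen chow, where the median difference of all genes was -0.05. Plaque-associated microglia had a median of 0.14 there beside 0.10 on control chow, microglia and macrophages 0.12 beside 0.14, and reactive astrocytes 0.13 beside 0.09. Cholesterol synthesis had 0.03 beside 0.22 and oligodendrocytes -0.03 beside 0.16. Tspan2 gave -0.01 beside 0.39, Hsd17b7 -0.08 beside 0.39, and Arpp21 -0.12 beside -0.34. In a test of the difference between diets 0 genes passed over all genes (0%), and 4087 genes (20.5%) had an unadjusted p under 0.05. With array weights 174 genes passed, so this count depends on how arrays are weighted. For Tspan2 the difference between diets was 0.40 ± 0.14 (SE, limma adjusted p = 0.208), for Hsd17b7 0.47 ± 0.17 (SE, limma adjusted p = 0.208) and for Arpp21 -0.21 ± 0.08 (SE, limma adjusted p = 0.208). The 2 ibuprofen arrays that stand apart are both wild-type. Without those and APP-PS1 replicate 1 the count at unadjusted p was 1836. In that setting 21 genes were above on both diets, out of 690 on control chow and 517 on ibuprofen chow. They were 4.06% of the 517, near the 3.461% of all genes that were above on control chow. The 21 included App, Prnp, Cst7 and Gal, and also Ccl3, Ctsz, Gfap, Hpgd, Laptm5, Psenen and Stard4. The rest were 2210016F16Rik, Ckap4, Dad1, Daglb, Dera, Idh1, Rassf8, Rnh1, Scpep1 and Slc41a2.

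**Figure D5:**
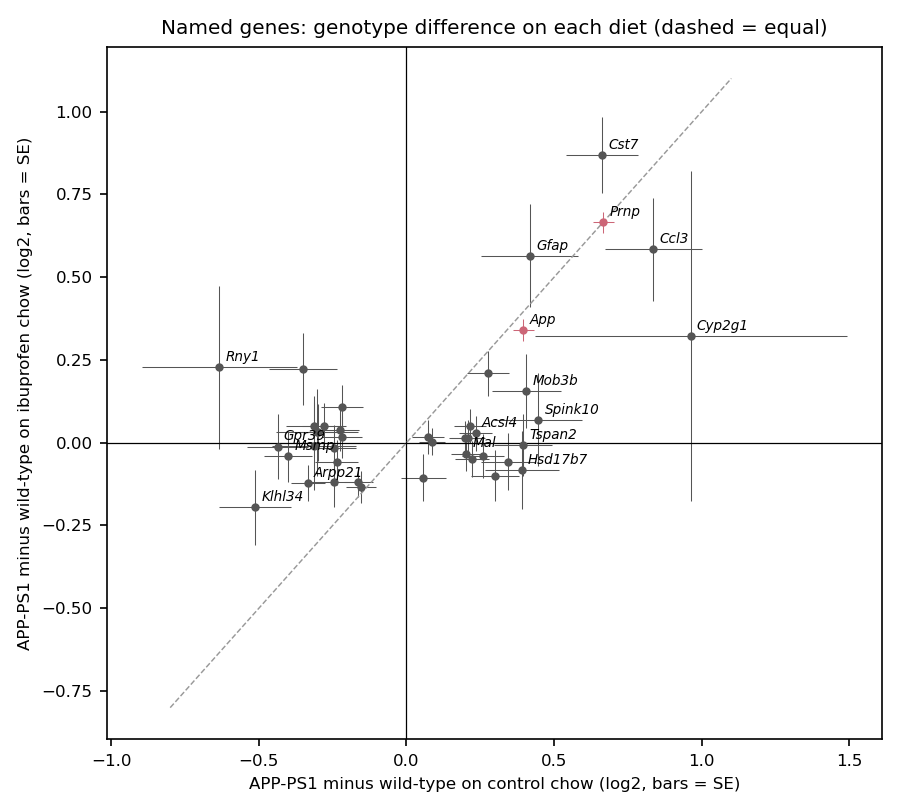
Difference between APP-PS1 and wild-type (log2, bars of 1 SE) for the named genes, on control chow along the horizontal axis and on ibuprofen chow along the vertical axis, with a dashed line where both are equal. Prnp at 0.67 and 0.67, App at 0.40 and 0.34 and Cst7 at 0.66 and 0.87 lie near the dashed line or above it, whereas Tspan2 at 0.39 and -0.01 and Msmp at -0.40 and -0.04 lie near the level of no difference on ibuprofen chow.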

How the data were processed

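The 19 arrays are Affymetrix whole-transcript arrays of mouse hippocampus. The authors deposited log2 signals per probe set, normalized by RMA in Partek 6.5 per the submitters' processing notes; these values were used as deposited, with no new normalization. Arrays give no read depth, and the number of arrays (5 and 4) limits the precision. Of 35556 probe sets, 21789 had 1 gene symbol, 1621 several and 12146 none in the platform annotation, and 21698 were matched to RefSeq by Entrez number. A gene with several probe sets was read from its brightest on average, which gave 19938 genes. A mean per group was fitted over all 19 arrays with limma 3.58.1 (empirical Bayes with an intensity trend, 15 residual and 6.65 prior degrees of freedom), and two-sided p-values were adjusted by Benjamini-Hochberg over all genes at 0.05. The contrasts were the genotypes on each chow and the difference between them.

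The genes and the 41 lists (682 of 746 genes measured) were chosen with earlier results of these data known, so lists were described by counts and medians and not tested. The split by brightness was added after the values were seen. Named genes were those around the transgenes, the 15 with the smallest p in each direction among genes with a standard name, the 10 with the largest difference in each direction among genes whose groups did not overlap, up to 5 members of each list by p in each direction, and the members that head a list. Some genes are not reported here. The fit was first tested on simulated data. Alternatives were another normalization, centring, filters, probe set rules, variance settings, covariates, the replicate number as a block and leaving out arrays. Promoters came from RefSeq (GRCm38.p6), and the 4 motifs were searched on both strands.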

Additional observations from a re-analysis of the deposited data

Results flagged for a closer look

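Single arrays were set against the rest of their group for the named genes and the list means, in 166 groups of 4 or 5 arrays. In 20 of them the highest or lowest array stood far from the others by Dixon's criterion, whose critical value is 0.829 for 4 arrays and 0.71 for 5. Chance gives about 1 in 20 such groups, and the lists share members, so these are values to look at and not a count to read.

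APP-PS1 replicate 1 accounted for 7. It was high for the list means of cholesterol synthesis, 10.711, cholesterol regulation, 10.825, and cyclic AMP signalling, 10.901. It was also high for Hsd17b7, 10.838, Mtx2, 10.924, and Rassf8, 10.133, and low for Fxyd7, 10.433. Among the other APP-PS1 arrays, replicate 2 was high for Arpp21, 11.129, and replicate 5 was high for the mean of the interferon response, 9.074.

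Wild-type replicate 2 was high for Mal, 11.652, and for the list means of oligodendrocytes, 10.891, plaque-associated microglia, 9.817, reactive astrocytes, 8.817, and endothelial cells, 9.68. Wild-type replicate 3 was low for Vma21, 10.285, and Spink10, 6.688, and high for Gpr39, 7.214, Efna5, 9.401, and the mean of potassium channels, 10.782. Wild-type replicate 4 was low for App, 13.162. The causes were not tested.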

How the results depend on the processing

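Prnp and App passed the test under all 23 alternatives. The number called lower was 0 as reported, 1 after a second quantile normalization, without the dimmest 25% of genes, with robust empirical Bayes or with the replicate number as a block, and 4 with array weights, which also called 4 higher. Leaving out 1 array gave 2 to 3 called higher and 0 to 2 lower. Genes at unadjusted p under 0.05 numbered 2205 with array weights, 1999 with the control chow arrays alone, 660 with an oligodendrocyte covariate, and 400 to 1594 without 1 array. For the difference between diets array weights called 174 genes, and the unadjusted count was 832 with the oligodendrocyte covariate, 1836 without the 3 arrays that stand apart, and 2747 to 4598 without 1 array. Genes above without overlap numbered 325 after centring and 652 to 1561 without 1 array. Genes below without overlap numbered 346 after centring, 118 without the dimmest 25%, 390 without the 3 arrays and 213 to 498 without 1 array. The median of cytokines was -0.0308 after centring, -0.0171 with the block and -0.0143 to 0.0323 without 1 array, and that of the genes around the transgenes 0.0532 after centring. With the oligodendrocyte covariate the medians were -0.0033 for homeostatic microglia, 0.0219 for microglia and macrophages, -0.0438 for precursors, -0.0016 for oligodendrocytes, 0.0032 for the respiratory chain and 0.2876 for sex-linked genes, and Psen2 reversed to -0.0103. The cause was not tested. The value for oligodendrocytes is no test either, as that covariate stands for the same transcripts.

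Replicate numbers did not pair the samples: deviations of same-numbered arrays correlated at -0.071, -0.27, 0.063 and 0.098. With the replicate block App, Ccl3, Prnp and Vmn1r48 were called. Differences of single genes kept their direction in 960 of 961 values, the exception being Psen2. Most of these genes were chosen for a small p or a large difference in the same arrays. Their direction could hardly change, so the count is no measure of how firm the differences are.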
